A study of Homo sapiens with 8 samples.

Results

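Cyclins and cyclin-dependent kinases (CDKs) were described in the deposited table as every gene symbol of the cyclin families A to L, CCNT1, CCNT2, CCNY and the numbered CDKs. The rule matched 43 of 26830 symbols. By their known roles, 16 were taken as cell cycle members (cyclins A, B, D, E and F with CDK1, CDK2, CDK3, CDK4 and CDK6), 13 as transcriptional members (cyclins C, H, K, L and T with CDK7, CDK8, CDK9, CDK12, CDK13 and CDK19) and 14 as other members. A gene was tested if it reached 1 TPM (a gene's share of the library corrected for transcript length) in at least 2 libraries, which kept 41 members. The untested pair was CCNI2, whose highest value was 0.82 TPM, and CDK15, whose highest value was 0.06 TPM.

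The libraries came from NOMO-1 and MOLM-13, human acute myeloid leukaemia lines that each carry an MLL fusion gene. The 4 groups were NOMO-1 and MOLM-13 cells transduced with a lentivirus that carries either a control hairpin (shNS) or 1 hairpin directed at ALKBH5 (shALKBH5), with 2 libraries each (n = 2 throughout). ALKBH5 is an RNA demethylase that acts on N6-methyladenosine, and the comparison asks what its loss does to the messenger RNAs of each line. All groups went through lentiviral transduction and puromycin selection. The series text puts that selection at 4 days, whereas the sample protocols put it at 1 week and also name FTO as the virus target and mention drugs that no sample label lists. Only 1 hairpin was used, and nothing says that the libraries of a group were separate cultures, so the p-values reflect variation among the libraries alone, and that variation may be technical.

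A cyclin is the regulatory partner that switches on a CDK. D-type cyclins with CDK4 or CDK6 act in G1 and lead to phosphorylation of the retinoblastoma protein, E-type cyclins with CDK2 act at entry into S phase, cyclin A2 works with CDK2 and CDK1, and B-type cyclins with CDK1 drive mitosis. The transcriptional members instead work with RNA polymerase II: CDK7 with cyclin H is the kinase of TFIIH, CDK8 or CDK19 with cyclin C is the kinase module of Mediator, CDK9 with cyclin T1 or T2 is the elongation factor P-TEFb, and CDK12 and CDK13 with cyclin K act in elongation. In myeloid leukaemia lines, CDK6 and the D-type cyclins are the best known of these genes, since CDK6 has been described as needed for growth of MLL-fusion cells.

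Promoters of several mitotic genes hold a cell cycle homology region (CHR) just before the start, often with CCAAT boxes upstream, which are bound by the DREAM and MYB-MuvB complexes and by NF-Y. The following stretches show these letters in the 6 cell cycle members that hold them among those lower in both lines after knockdown, in RefSeq promoter windows of 250 bases before to 50 after the start (GRCh38.p14). Each is 30 bases, with the CHR hexamer in capitals, read 5′ to 3′ on the gene's strand. Where a gene holds more than 1, the one closest before a start is printed. CCNA2 holds another 87 bases before its start. CDK1 holds others 161 and 131 bases before its first listed start, and 69 before and 9 after its second.

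CCNA2: agtcgcgggataCTTGAActgcaagaacag
CCNB1: agcagtgcggggTTTAAAtctgaggctagg
CCNB2: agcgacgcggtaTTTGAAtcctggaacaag
CDK1: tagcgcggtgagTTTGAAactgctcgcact
CCNF: gggccgggtgcgTTTGAAaactggggtggg
CCNE1: gcgcgcagggatTTTAAAtgtcccgctctg

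The CCNA2 stretch is chr4:121823894-121823923 on the minus strand, with its hexamer starting 28 bases before the start. On the plus strand, CCNB1 is at chr5:69167108-69167137 (30 bases before), CCNB2 at chr15:59105105-59105134 (29 before), CDK1 at chr10:60778453-60778482 (13 before its second listed start), CCNF at chr16:2429350-2429379 (85 before) and CCNE1 at chr19:29811951-29811980 (28 before). GENCODE release 29 starts these genes further upstream, except CDK1, which it starts at the first listed start. The exons of that release cover the last 50 bases before the start in CCNA2, 140 in CCNB1, 68 in CCNB2, 93 in CCNE1 and 53 in CCNF. In CDK1 an exon covers 129 of the bases before the second listed start, but which of them was not recorded. By that annotation the printed hexamers of CCNA2, CCNB1, CCNB2 and CCNE1 lie inside an exon of their own gene. That of CCNF does not, and for CDK1 this was not settled. CCNB2 also holds CCAAT boxes upstream, at 244, 120, 87 and 54 bases before the start. Its 182 bases before the first annotated exon (chr15:59104896-59105077, plus strand) hold 3 of them, in capitals together with another CHR hexamer, 193 bases before. That stretch ends before the box at 54 and the CHR hexamer printed above.

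CCNB2 upstream: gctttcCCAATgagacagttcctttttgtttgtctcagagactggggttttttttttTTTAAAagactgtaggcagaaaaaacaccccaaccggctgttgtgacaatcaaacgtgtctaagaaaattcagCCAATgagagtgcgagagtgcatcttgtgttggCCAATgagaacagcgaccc

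As a contrast, the 250 bases before the start of CDK12, a transcriptional kinase (chr17:39461236-39461485, plus strand), hold no match to any motif searched. CDK12 was picked for that lack, and other transcriptional members do hold these letters.

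CDK12 upstream: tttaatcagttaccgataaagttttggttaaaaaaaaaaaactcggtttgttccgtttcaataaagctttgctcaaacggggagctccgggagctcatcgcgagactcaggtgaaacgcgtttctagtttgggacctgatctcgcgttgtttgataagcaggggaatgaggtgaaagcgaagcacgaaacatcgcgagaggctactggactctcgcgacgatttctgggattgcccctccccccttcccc

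The motifs were CHR (TTTGAA or TTTAAA or CTTGAA), the CCAAT box and an E2F site (TTTCGCGC or TTTGGCGC or TTTCCCGC), searched on both strands. None of the 3 contains another. These short CHR letters were common among the 27305 genes that have a promoter window, a set that differs from the genes tested. Of them, 35.7% held at least 1, 39.7% held CCAAT, and 14.5% held both in a single window. By single motif, CHR was held by 6 of the 12 cell cycle members that have a window, 5 of 13 transcriptional and 5 of 14 other members, and CCAAT by 6, 6 and 5. Both stood in 1 window in 5 of the 12 cell cycle members, in 2 of 13 transcriptional members and in 2 of 14 other members. Of the cell cycle members lower in both lines (a choice made after their values were seen), 5 of 7 held both, CCNE1 held CHR without CCAAT, and CDK6 held neither. An E2F site was found in 1 cell cycle, 1 transcriptional and 1 other member, against 3.3% of all genes with a window. A match is a run of letters and not a bound site. CCND1, CCND2, CCNE2 and CDK2 have no promoter window.

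ALKBH5 itself (chromosome 17, 18183078 to 18209954) stood at 70.4 and 71.8 TPM in NOMO-1 controls and at 15.1 and 14.2 TPM after knockdown, and at 45.7 and 45.8 TPM in MOLM-13 controls against 9.45 and 7.35 TPM. The libraries of MOLM-13 shALKBH5 stood furthest apart: the SD of the log2 difference between its libraries was 0.53 over 8804 genes, against 0.133 to 0.184 in the other groups. In that group replicate 1 held 743 TPM of 5 interferon-stimulated genes against 24.9 TPM in replicate 3 (47.3 to 48 TPM in MOLM-13 controls). In NOMO-1 the sum of these genes was 200 and 211 TPM in controls and 391 and 377 TPM after knockdown. In MOLM-13 shALKBH5, 4 structural RNAs without a poly(A) tail summed to 2040 and 3860 TPM against 122 to 299 TPM in the other 6 libraries. Myeloid markers such as PTPRC, CD33 and SPI1 were expressed in every library, but MPO, a granule enzyme of myeloid precursors, was at or under 0.48 TPM in NOMO-1. Of 8 such markers, 2 were higher and 2 lower after knockdown in NOMO-1, beside 28.6% and 15% of all genes tested. In MOLM-13, 2 were higher and 3 lower, beside 10.6% and 31.2% of all genes tested. MPO fell in MOLM-13 from 384 and 456 to 19.3 and 16.4 TPM (limma adjusted p = 0.00011). LYZ, the lysozyme of monocytes and granulocytes, was 3.16 times higher in NOMO-1 and 1.78 times higher in MOLM-13 by group mean (limma adjusted p = 0.0017 and 0.024). The sum of the 8 went from 1100 and 1140 to 2120 and 2120 TPM in NOMO-1 and from 10300 and 9790 to 20300 and 12900 TPM in MOLM-13. That rise lay in LYZ and not in the markers at large. LYZ alone went from 463 and 500 to 1530 and 1510 TPM in NOMO-1. In MOLM-13 LYZ went from 9130 and 8490 to 19300 and 12100 TPM. Lymphoid markers summed to at most 4.06 TPM and epithelial and stromal markers to at most 1.68 TPM in any library, and erythroid markers were listed at 0 except for 14 TPM in MOLM-13 shALKBH5 replicate 3. The part of these features in the results on cyclins and CDKs was not tested. TPM is a share, and the median log2 fold change over all genes tested was 0.16 in NOMO-1 and -0.18 in MOLM-13, moving to 0 and 0.03 when libraries were rescaled by the median of ratios.

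Values follow the order replicate 1 then 3 (2 then 3 in NOMO-1 shALKBH5). Tests are limma's on log2(TPM + 1) with p-values adjusted over all 14302 genes tested, called under 0.05. With 2 libraries a group, many members that were not called also had groups without overlap, such as CDK4 and CCNK in NOMO-1. A lack of overlap therefore singles out no gene, and its share over all genes is not given here. Most of the cell cycle members fell after knockdown in both lines. In NOMO-1, 9 of 16 were lower and 1 was higher, where 15% of all genes tested were lower and 28.6% higher. In MOLM-13, 11 of 16 were lower, where 31.2% of all genes tested were, and 0 were higher by limma, with 0 also at an unadjusted p under 0.05 (10.6% of all genes were higher). Their median log2 fold change was -1.15 in NOMO-1 and -1.81 in MOLM-13. The transcriptional members gave other counts: in NOMO-1, 4 of 13 were higher and 1 lower, a share higher near that of all genes, with a median of 0.31. In MOLM-13, 7 of 13 were lower and 0 higher by limma (0 also at an unadjusted p under 0.05), with a median of -0.59. The shares over all genes include many low genes. Of the 8803 tested genes that averaged 10 TPM or more, 3422 were lower and 897 higher in MOLM-13, with a median of -0.32. In NOMO-1, 1591 of these better expressed genes were lower and 2503 higher, with a median of 0.13. In bulk RNA, fewer cells in a phase of the cycle and less RNA per cell cannot be told apart.

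**Figure D1:**
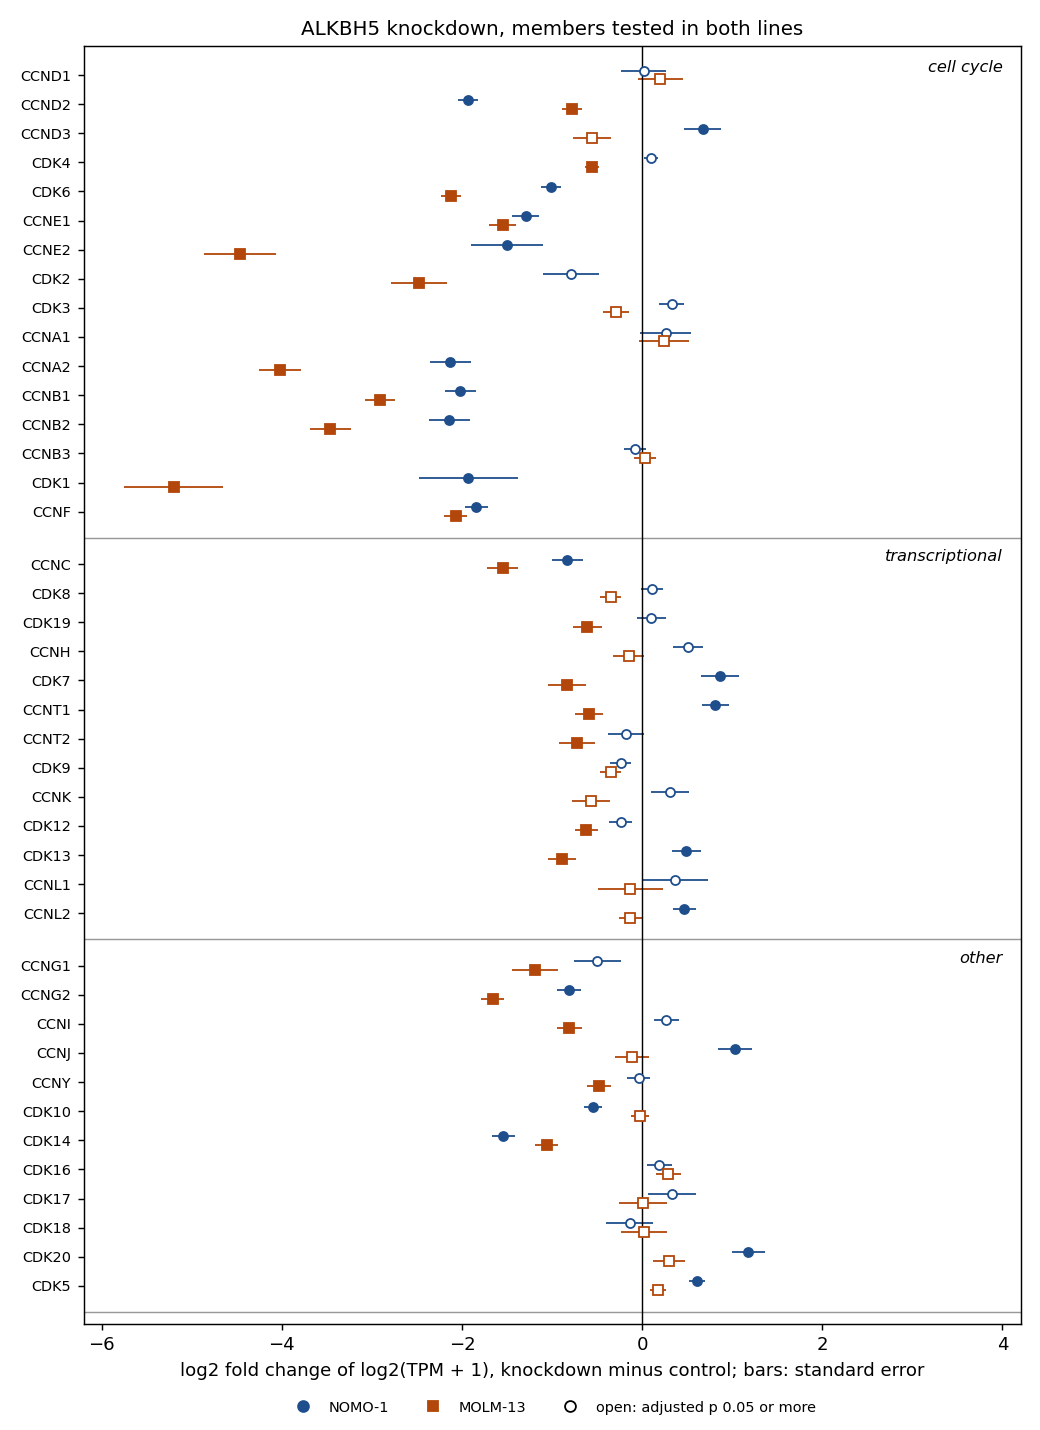
Log2 fold change on the log2(TPM + 1) scale (x axis, knockdown minus control) for the 41 tested cyclins and CDKs, NOMO-1 as circles and MOLM-13 as squares, with bars for the standard error and open symbols where the adjusted p is 0.05 or more. Cell cycle members reach -5.2 (CDK1 in MOLM-13), while transcriptional members lie between -1.55 and 0.86.

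CDK1, the kinase of entry into mitosis (chromosome 10, 60778331 to 60794852), stood at 189 and 188 TPM in NOMO-1 controls and at 44 and 54.2 TPM after knockdown, and at 90.8 and 88.8 TPM in MOLM-13 controls against 3.78 and 0.28 TPM. Every knockdown library was below every control library of its line, and the lowest value was in MOLM-13 replicate 3. The log2 fold change of CDK1 was -1.93 (limma adjusted p = 0.031, SE 0.55) in NOMO-1 and -5.2 (adjusted p = 0.0011, SE 0.55) in MOLM-13, where it was -4.25 without replicate 3 and -6.15 without replicate 1. By group mean this was 3.84 times lower in NOMO-1 and 44.2 times lower in MOLM-13. Its NOMO-1 call rests on a spread shared with MOLM-13: the adjusted p was 0.00014 with NOMO-1 fitted alone, but the call held under 8 of 17 alternatives and was lost when any 1 NOMO-1 library or any 1 MOLM-13 control was left out.

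CCNA2, cyclin A2 (chromosome 4, 121816444 to 121823933), was at 199 and 199.7 TPM in NOMO-1 controls, 38.7 and 51.6 TPM in the knockdown, 58.3 and 59.2 TPM in MOLM-13 controls and 3.63 and 1.94 TPM in the knockdown. It fell by 2.13 (limma adjusted p = 0.001, SE 0.23) in NOMO-1 and by 4.02 (adjusted p = 0.00022, SE 0.23) in MOLM-13 on the log2 scale. CCNB1 (chromosome 5, 69167010 to 69178245), a cyclin of mitotic entry, was at 193 and 201 against 42.6 and 53.5 TPM in NOMO-1 and at 61.8 and 62.5 against 8.73 and 6.3 TPM in MOLM-13. The groups of CCNA2 and CCNB1 did not overlap in either line. CCNB1 changed by -2.02 (limma adjusted p = 0.00053, SE 0.17) in NOMO-1 and by -2.91 (adjusted p = 0.00022, SE 0.17) in MOLM-13.

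CCNB2, the other mitotic B-type cyclin (chromosome 15, 59105078 to 59125045), stood in controls at 247 and 256 TPM in NOMO-1 and 63.4 and 65.5 TPM in MOLM-13. After knockdown it stood at 50.1 and 63.5 TPM in NOMO-1 and at 6.49 and 3.73 TPM in MOLM-13, 4.43 and 12.6 times lower. CCNF, which is not known to activate a CDK and is the substrate receptor of an SCF ubiquitin ligase (chromosome 16, 2429394 to 2458854), was at 57.1 and 56.5 against 14 and 16.3 TPM in NOMO-1 and at 14.3 and 15.2 against 3.12 and 2.42 TPM in MOLM-13. Both genes fell in both lines and held their calls under all 17 alternatives run: CCNB2 had log2 fold changes of -2.14 (limma adjusted p = 0.00096, SE 0.23) and -3.46 (adjusted p = 0.00028, SE 0.23), and CCNF of -1.84 (adjusted p = 0.00038, SE 0.13) and -2.07 (adjusted p = 0.00025, SE 0.13).

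**Figure D2:**
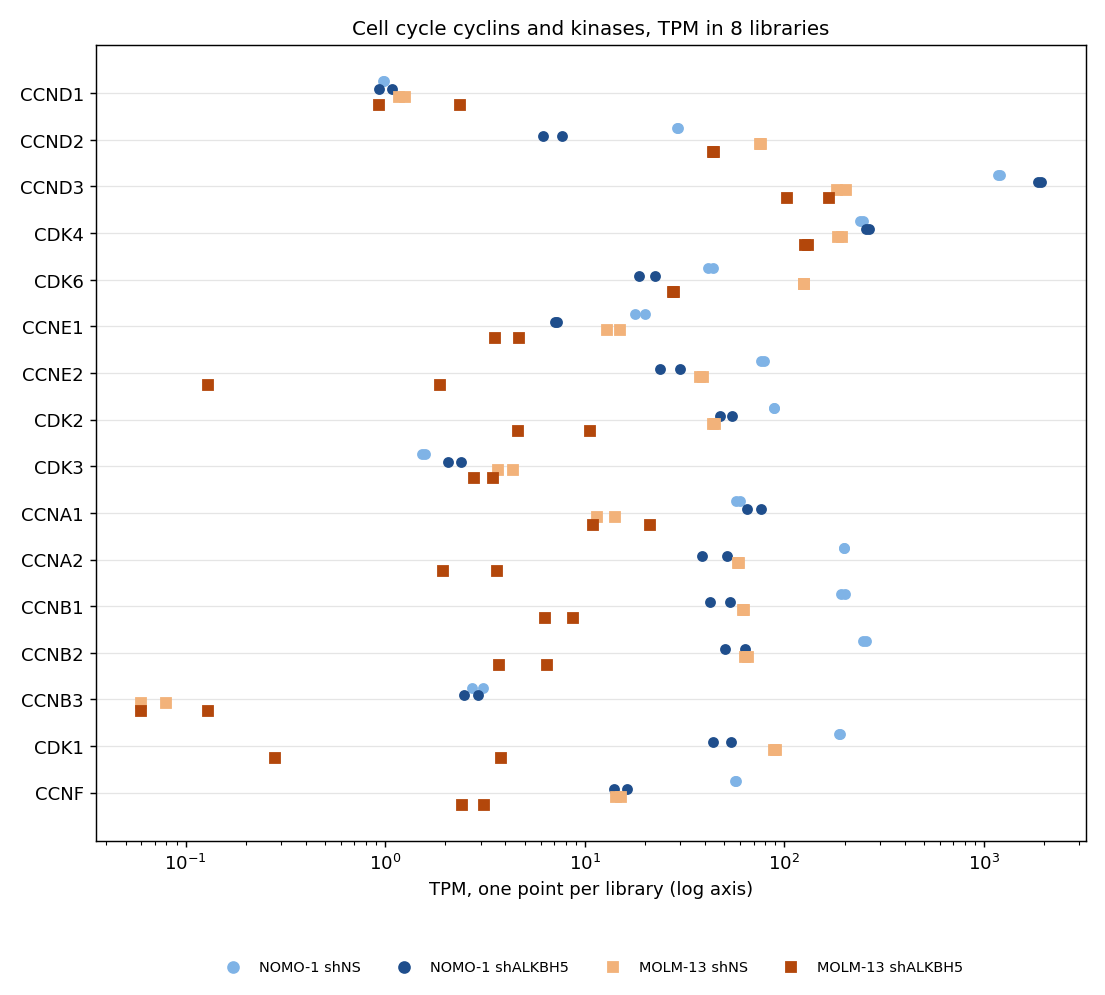
TPM of the 16 cell cycle members (x axis, logarithmic) in each of the 8 libraries, 1 point per library, coloured by line and hairpin. CCNA2, CCNB1, CCNB2 and CDK1 sit between 188 and 256 TPM in NOMO-1 controls and between 0.28 and 8.73 TPM in MOLM-13 shALKBH5.

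The remaining A and B cyclins did not pass the test. CCNA1, the germline and myeloid A-type cyclin, stood at 57.5 and 59.6 TPM in NOMO-1 controls and 65.1 and 76.3 TPM after knockdown, and at 14.2 and 11.5 against 21.1 and 11 TPM in MOLM-13, where the groups overlapped. Its log2 fold changes of 0.26 and 0.24 did not pass (limma adjusted p = 0.49 and 0.54). CCNB3, a meiotic B-type cyclin, was at 2.47 to 3.09 TPM in NOMO-1 and at 0.06 to 0.13 TPM in MOLM-13, with overlapping groups in each. Every NOMO-1 library was above every MOLM-13 library for CCNB3, whichever hairpin it carried.

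At the G1 to S step, CCNE1 (chromosome 19, 29811898 to 29824308) was at 20.1 and 17.9 TPM in NOMO-1 controls against 7.28 and 7.09 TPM, and at 14.9 and 12.9 against 4.69 and 3.56 TPM in MOLM-13. CCNE2 (chromosome 8, 94879770 to 94896678), the other E-type cyclin, was at 79.3 and 76.2 against 23.8 and 30.1 TPM in NOMO-1 and at 39.3 and 37.8 against 1.87 and 0.13 TPM in MOLM-13. The balance of the pair changed in MOLM-13: CCNE2 made up 72.5% and 74.5% of their summed TPM in controls and 28.5% and 3.52% after knockdown, against 76.6% to 81% in every NOMO-1 library. CCNE1 fell by 1.29 (limma adjusted p = 0.0012, SE 0.15) in NOMO-1 and by 1.55 (adjusted p = 0.00077, SE 0.15) in MOLM-13. CCNE2 had log2 fold changes of -1.5 (limma adjusted p = 0.025, SE 0.4) in NOMO-1 and -4.46 (adjusted p = 0.00065, SE 0.4) in MOLM-13, where it was -3.78 without replicate 3 and -5.13 without replicate 1. The NOMO-1 call of CCNE2 held under 11 of 17 alternatives and was lost without any 1 of the 4 NOMO-1 libraries.

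CDK2, their kinase (chromosome 12, 55966769 to 55972784), stood at 88.7 and 88.8 TPM in NOMO-1 controls against 47.3 and 54.7 TPM, and at 44.8 and 43.6 against 10.6 and 4.61 TPM in MOLM-13. The groups did not overlap in either line. CDK2 fell by 2.48 (limma adjusted p = 0.0019, SE 0.31) in MOLM-13, where it was -1.96 without replicate 3 and -3.01 without replicate 1. Its NOMO-1 value of -0.79 (SE 0.31) missed the threshold (adjusted p = 0.086), and passed with that line fitted alone (adjusted p = 0.0007) or under rescaling by the median of ratios (adjusted p = 0.011). CDK3, a low kinase of G1, was at 1.53 to 4.38 TPM in all 8 libraries and passed in neither line.

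The G1 members split. CCND3 (chromosome 6, 41934933 to 42050357) was the most abundant cyclin or CDK of NOMO-1, at 1206 and 1176 TPM in controls and 1920 and 1868 TPM after knockdown, whereas MOLM-13 held 183 and 204 TPM in controls and 166 and 103 TPM after knockdown. Groups did not overlap in either line, and the values moved up in NOMO-1 and down in MOLM-13. CCND3 was 0.67 higher in NOMO-1 (limma adjusted p = 0.045, SE 0.21) on the log2 scale, and its -0.56 in MOLM-13 did not pass (adjusted p = 0.08). That NOMO-1 call held under 8 of 17 alternatives and was lost without any 1 NOMO-1 library or any 1 MOLM-13 control, with adjusted p up to 0.17. CCND2 (chromosome 12, 4273772 to 4305350) went down in both lines, from 29.4 and 28.8 to 6.18 and 7.65 TPM in NOMO-1 and from 76.5 and 75.6 to 43.7 and 44.3 TPM in MOLM-13. Its log2 fold change was -1.93 (limma adjusted p = 0.00032, SE 0.11) in NOMO-1 and -0.78 (adjusted p = 0.0031, SE 0.11) in MOLM-13. CCND1 stood at 0.93 to 2.36 TPM in every library and passed in neither line.

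CDK6 (chromosome 7, 92604921 to 92836594) stood at 43.7 and 41.5 TPM in NOMO-1 controls against 18.8 and 22.6 TPM, and at 125 and 125 TPM in MOLM-13 controls against 27.8 and 28.1 TPM. It fell by 1.01 (limma adjusted p = 0.001, SE 0.11) and by 2.12 (adjusted p = 0.00018, SE 0.11), and the call held under all 17 alternatives in each line. CDK4 (chromosome 12, 57747727 to 57756013), the sister kinase, gave 240 and 247 against 257 and 266 TPM in NOMO-1 (log2 fold change 0.1, limma adjusted p = 0.36), and 186 and 195 against 131 and 126 TPM in MOLM-13 (-0.56, adjusted p = 0.0032, SE 0.08). Its MOLM-13 call was lost with rescaling by the median of ratios (-0.27, adjusted p = 0.084) and with that line fitted alone (adjusted p = 0.058). CDK6 was a smaller part of the pair in every knockdown library: it made up 14.4% to 15.4% of the CDK4 and CDK6 sum in NOMO-1 controls and 6.79% to 7.82% after knockdown, and 39% to 40.2% in MOLM-13 controls and 17.5% to 18.2% after knockdown.

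**Figure D3:**
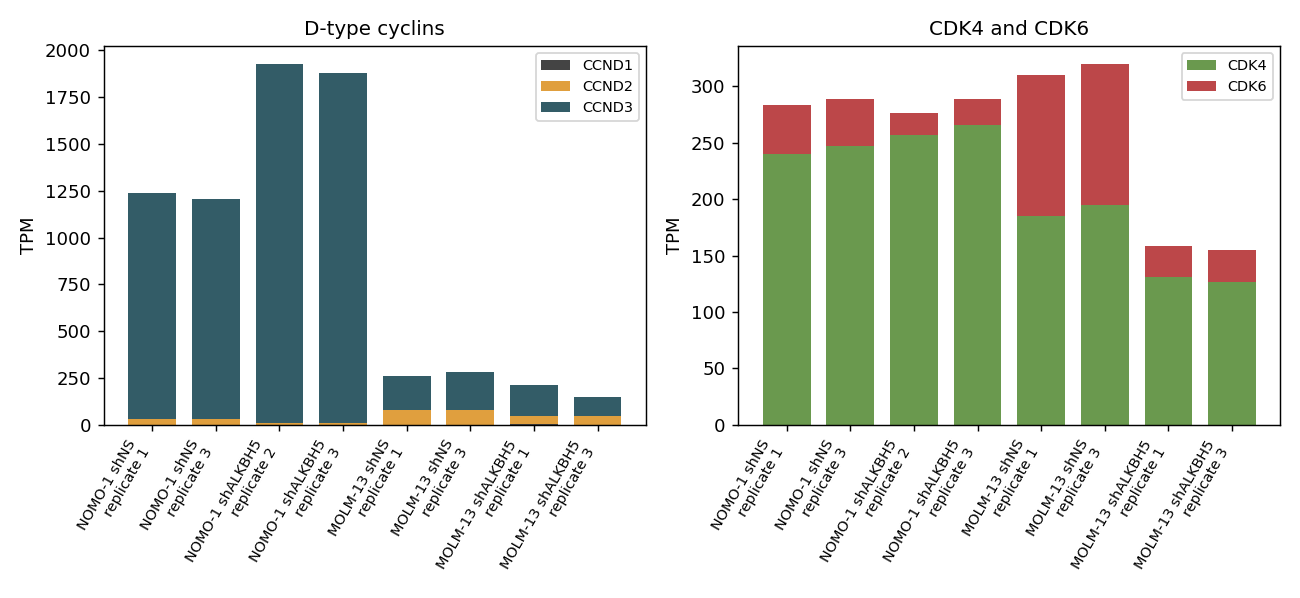
Stacked TPM of the 3 D-type cyclins (left) and of CDK4 and CDK6 (right) in each library, both y axes starting at 0. CCND3 makes up 97.5% to 99.6% of the D-type sum in NOMO-1 libraries and 69.4% to 78.3% in MOLM-13 libraries, and the CDK6 share is lower in the knockdown libraries of each line.

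Among the transcriptional members, CCNC, the cyclin of the Mediator kinase module (chromosome 6, 99542380 to 99568973), was the 1 that fell in both lines, from 81.2 and 81.9 to 43.2 and 48.1 TPM in NOMO-1 and from 115 and 112 to 45.8 and 31.5 TPM in MOLM-13. The changes were -0.83 (limma adjusted p = 0.011, SE 0.17) and -1.55 (adjusted p = 0.0013, SE 0.17). Of its kinases, CDK8 was at 23.2 to 26.5 TPM in NOMO-1 and at 16.9 to 25.2 TPM in MOLM-13, and passed in neither line. CDK19 was at 22.1 to 24.1 TPM in NOMO-1 (0.1, adjusted p = 0.69), and fell in MOLM-13 from 26 and 25.2 to 19.7 and 13.7 TPM (-0.61, adjusted p = 0.027, SE 0.16).

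CDK7, the TFIIH kinase that also activates other CDKs (chromosome 5, 69234795 to 69277430), was at 31 and 32.7 TPM in NOMO-1 controls and 60 and 57.4 TPM after knockdown, and at 36.5 and 33.6 TPM in MOLM-13 controls against 24.4 and 15.1 TPM. The groups did not overlap, and the direction differed between the lines. CDK7 rose by 0.86 (limma adjusted p = 0.018, SE 0.21) in NOMO-1 and fell by 0.83 (adjusted p = 0.021, SE 0.21) in MOLM-13. CCNH, its cyclin, was at 71.2 and 73.9 against 102 and 105 TPM in NOMO-1 (0.51, limma adjusted p = 0.051) and at 51.1 and 49.6 against 54.7 and 37.6 TPM in MOLM-13, where the groups overlapped.

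In P-TEFb, CCNT1 (chromosome 12, 48688458 to 48716998) showed the same opposite directions: 28.9 and 27.2 against 50.1 and 50 TPM in NOMO-1 (0.81, limma adjusted p = 0.007, SE 0.15) and 31 and 32.6 against 24.4 and 17.7 TPM in MOLM-13 (-0.59, adjusted p = 0.024, SE 0.15). CCNT2, the alternative cyclin, was at 23.2 to 27.7 TPM in NOMO-1 (-0.18, adjusted p = 0.51), and fell in MOLM-13 from 19.1 and 18.7 to 14 and 8.67 TPM (-0.72, adjusted p = 0.028, SE 0.2). CDK9, the kinase of P-TEFb, was at 31.2 to 37.5 TPM in NOMO-1 and at 24.3 to 35 TPM in MOLM-13 and passed in neither line (adjusted p = 0.14 and 0.052).

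CDK13, one of the elongation kinases of cyclin K (chromosome 7, 39949646 to 40099580), went from 34.4 and 33 to 47.8 and 47.6 TPM in NOMO-1 and from 35.4 and 34.6 to 21.9 and 15.3 TPM in MOLM-13. It rose by 0.49 (limma adjusted p = 0.049, SE 0.16) and fell by 0.89 (adjusted p = 0.0067, SE 0.16). CDK12 was at 49.4 and 49.7 against 39.5 and 43.9 TPM in NOMO-1 (-0.24, limma adjusted p = 0.18) and at 42.8 and 43 against 31.1 and 24.6 TPM in MOLM-13 (-0.62, adjusted p = 0.012, SE 0.13). CCNK was at 115 and 117 against 143 and 144 TPM in NOMO-1 and at 92.5 and 92.1 against 79.2 and 48.2 TPM in MOLM-13, and passed in neither (limma adjusted p = 0.29 and 0.075). The cyclins of splicing-linked kinases, CCNL1 and CCNL2, were at 70.4 and 73.2 against 92.8 and 93 TPM and at 77.6 and 82.3 against 108 and 115 TPM in NOMO-1, where CCNL2 was higher (0.47, limma adjusted p = 0.026, SE 0.13) and CCNL1 did not pass (adjusted p = 0.46). In MOLM-13 both had overlapping groups and did not pass.

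**Figure D4:**
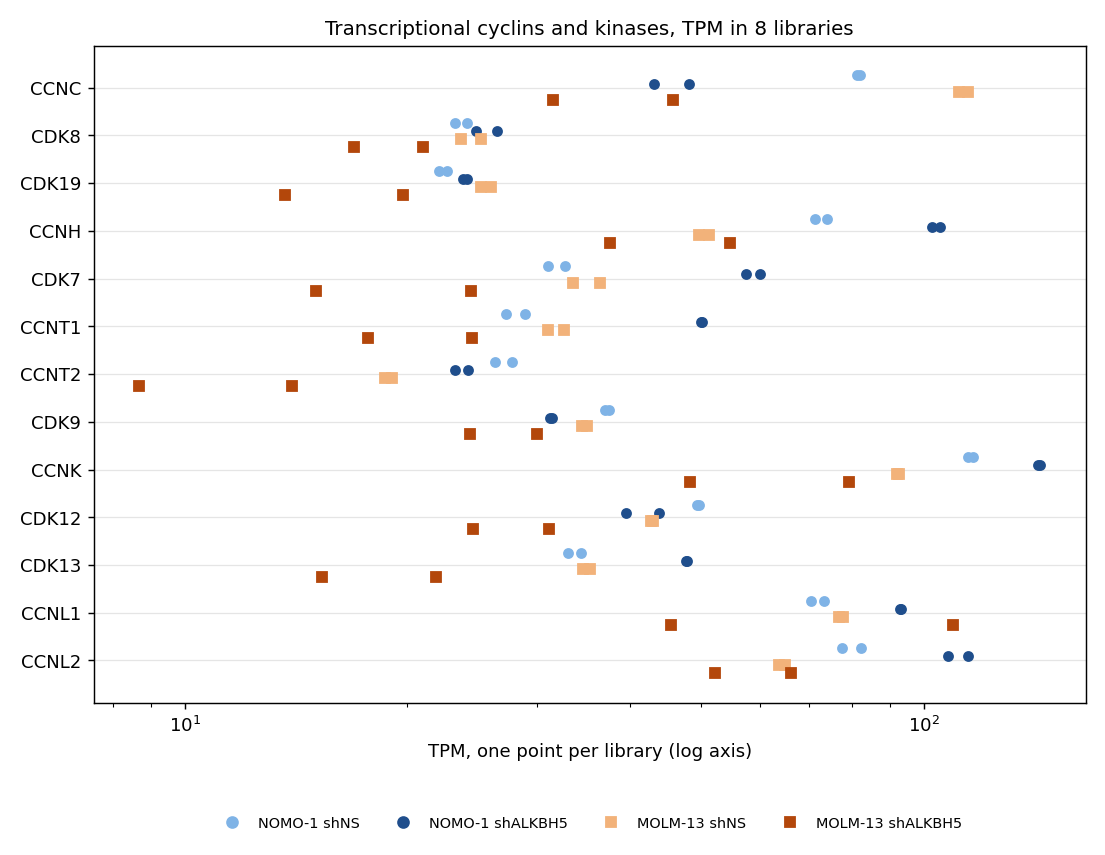
TPM of the 13 transcriptional members (x axis, logarithmic) in each of the 8 libraries, 1 point per library. All values lie between 8.67 and 144 TPM, and in MOLM-13 shALKBH5 replicate 3 is below replicate 1 for each member.

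**Figure D5:**
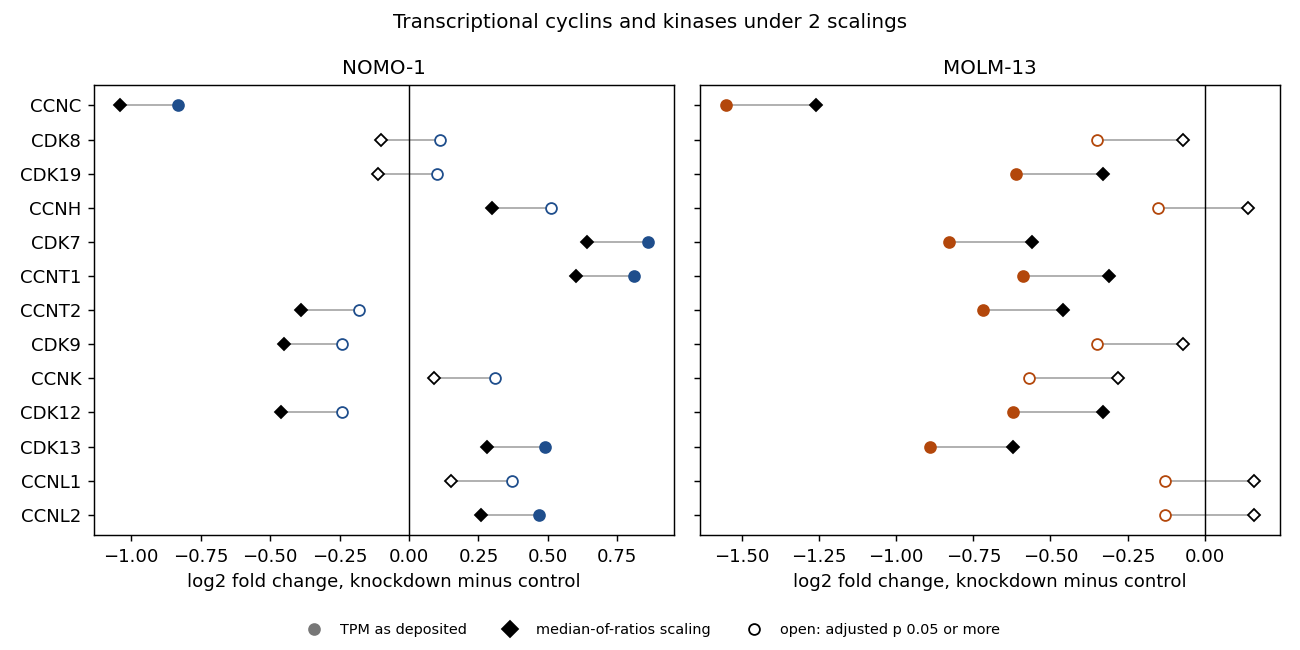
Log2 fold change of the 13 transcriptional members from TPM as deposited and after rescaling by the median of ratios, for each line, with open symbols where the adjusted p is 0.05 or more. Rescaling shifts every member in the same direction in a line, and CDK8 and CDK19 cross 0 in NOMO-1 and CCNH, CCNL1 and CCNL2 in MOLM-13.

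The transcriptional counts depend on how libraries were scaled and how the spread was pooled. After rescaling by the median of ratios, 5 were higher and 4 lower in NOMO-1, where 23.3% and 26% of all genes were, and all 7 lower in MOLM-13 stayed called, where 26.6% of all genes were lower. With each line fitted alone, 7 were higher and 4 lower in NOMO-1 (45.5% and 25.7% of all genes), and 1 was lower in MOLM-13 (16.4% of all genes), CCNC (adjusted p = 0.021). Of the cell cycle members, 10 were lower in each line under each of these settings, of 16 tested after rescaling and 15 with a line fitted alone.

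The contrast was also read per library, first for mitotic members alone. The summed TPM of CCNA2, CCNB1, CCNB2 and CDK1 was 1.23 and 1.24 times that of the 13 transcriptional members in NOMO-1 controls and 0.222 and 0.276 times after knockdown. In MOLM-13 it was 0.421 and 0.432 times in controls and 0.0418 and 0.0349 times after knockdown. The sum of all 16 cell cycle members moved little in NOMO-1, from 2650 and 2640 to 2540 and 2580 TPM. Without CCND3 it went there from 1450 and 1470 to 621 and 710 TPM. In MOLM-13 the full sum went from 977 and 1000 to 439 and 339 TPM. The transcriptional sum went from 671 and 679 to 791 and 808 TPM in NOMO-1. In MOLM-13 it went from 652 and 639 to 542 and 351 TPM. Set against the mean of the control libraries, the median log2 difference of the cell cycle members was -1.21 and -1.1 in the NOMO-1 knockdown libraries and -1.66 and -1.91 in those of MOLM-13. For the transcriptional members it was 0.3 and 0.31, and -0.36 and -0.81, beside 0.14 and 0.17, and -0.06 and -0.33, for all genes tested.

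Of the 12 other members tested, 3 were higher and 3 lower in NOMO-1, beside 28.6% and 15% of all genes, and 5 were lower in MOLM-13, beside 31.2% of all genes. In MOLM-13, 0 were higher by limma (0 also at an unadjusted p under 0.05), beside 10.6% of all genes. CDK14, a kinase of Wnt signalling (chromosome 7, 90466424 to 91210590), fell in both lines, from 25.4 and 24.1 to 7.16 and 8.59 TPM in NOMO-1 and from 2.44 and 2.53 to 0.55 and 0.81 TPM in MOLM-13 (-1.54 and -1.06, SE 0.13 each, limma adjusted p = 0.00056 and 0.0019). CCNG2, a cyclin linked to growth arrest, also fell in both, from 11.7 and 12 to 6.08 and 6.65 TPM and from 14 and 11.7 to 3.12 and 3.6 TPM (-0.81 and -1.66, SE 0.13 each, adjusted p = 0.0036 and 0.0004).

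In NOMO-1 CCNJ rose from 24.2 and 24 to 49.9 and 50.2 TPM (1.03, limma adjusted p = 0.007, SE 0.19), CDK20 from 4.18 and 4.02 to 11.5 and 9.68 TPM (1.18, adjusted p = 0.0035, SE 0.18), and CDK5, a kinase best known in neurons, from 20.1 and 20 to 31.1 and 31.1 TPM (0.61, adjusted p = 0.0028, SE 0.09). CDK10 fell there from 18.6 and 19.7 to 12.2 and 13.3 TPM (-0.55, adjusted p = 0.0068, SE 0.1). None of these 4 passed in MOLM-13. The other falls in MOLM-13 were those of CCNG1 (171 and 163 to 98.4 and 53.8 TPM, adjusted p = 0.014), CCNI (337 and 339 to 224 and 165 TPM, adjusted p = 0.0066) and CCNY (34.5 and 35.2 to 28.4 and 21.6 TPM, adjusted p = 0.031). CDK16, CDK17 and CDK18 passed in neither line.

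Single libraries decided several calls beside those of CDK1, CCNE2 and CCND3. In NOMO-1, the calls of CDK13, CCNL2 and CDK7 were lost without any 1 NOMO-1 library (those of CDK13 and CCNL2 also without either MOLM-13 control), that of CCNC without either NOMO-1 control or without shALKBH5 replicate 2, that of CCNT1 without control replicate 3, and that of CDK10 without control replicate 3 or shALKBH5 replicate 2. In MOLM-13, the calls of CCNT1, CCNT2, CDK19 and CCNY were lost without any 1 NOMO-1 library or either MOLM-13 control, those of CDK7, CDK12 and CCNG1 without either MOLM-13 control, and that of CDK13 without MOLM-13 control replicate 1. CCND2 kept its MOLM-13 call under 16 of 17 alternatives. Leaving a library out also takes a degree of freedom from the fit.

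Regulators of these kinases come from a list of inhibitors, phosphatases, kinases and degradation factors. Of 22 tested among 23 listed CDK regulators, 11 were lower and 3 higher in NOMO-1, beside 15% and 28.6% of all genes, and 16 were lower and 1 higher in MOLM-13, beside 31.2% and 10.6%. The smallest p-values in NOMO-1 were those of CDC25C, a phosphatase that activates CDK1 (-2.23, limma adjusted p = 0.00032), CDKN2B, an inhibitor of CDK4 and CDK6 (1.51, adjusted p = 0.00037), CDC20 (-2.15, adjusted p = 0.00051) and SKP2 (-1.15, adjusted p = 0.00078). In MOLM-13 they were those of CDC25A (-2.85, adjusted p = 0.00011), CDC25C (-2.5, adjusted p = 0.00018), and the inhibitory kinases WEE1 (-2.94, adjusted p = 0.00022) and PKMYT1 (-3.14, adjusted p = 0.00026). CDKN2B was listed at 0 in all MOLM-13 libraries. CDKN1A, the p21 inhibitor, was higher in both lines (limma adjusted p = 0.0021 and 0.048), at 99.5 and 88.4 against 25.5 and 27.8 TPM in NOMO-1 and at 634 and 1090 against 483 and 507 TPM in MOLM-13. CDKN1B, the p27 inhibitor, was higher in NOMO-1 (277 and 286 against 153 and 156 TPM, adjusted p = 0.022) and lower in MOLM-13 (22.9 and 13.4 against 39.1 and 41.9 TPM, adjusted p = 0.0085). Other listed CDKN genes went down or did not pass. CDKN2A fell in NOMO-1 from 87.6 and 96.8 to 33.1 and 40.9 TPM (limma adjusted p = 0.034). CDKN2C fell in MOLM-13 from 70.9 and 73.7 to 25.8 and 14 TPM (limma adjusted p = 0.0024). CDKN3 was lower in both lines (limma adjusted p = 0.0031 and 0.00063), and CDKN2D passed in neither.

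Partners of the transcriptional kinases were subunits and regulators of TFIIH, Mediator, P-TEFb and the super elongation complex. Of 23 tested among 24, 5 were higher and 1 lower in NOMO-1, beside 28.6% and 15% of all genes, and 3 were higher and 7 lower in MOLM-13, beside 10.6% and 31.2%. In MOLM-13 these counts were near the shares over all genes. In NOMO-1 the smallest p-values were those of SUPT5H, a subunit of the elongation factor DSIF (0.9, limma adjusted p = 0.0011), HEXIM1, an inhibitor of P-TEFb (0.54, adjusted p = 0.0049), CDK11A (0.56, adjusted p = 0.018), whose near-identical copy CDK11B can share its reads, and MEPCE (0.34, adjusted p = 0.019). In MOLM-13 they were those of AFF1 (-1.53, adjusted p = 0.00097), GTF2H1, a TFIIH subunit (-1.16, adjusted p = 0.0027), MED12, which activates the Mediator kinase (-0.59, adjusted p = 0.0043), and AFF4 (-0.83, adjusted p = 0.013).

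The lines differed in their response in a test of the difference itself. Of the 41 members, 19 had a more positive and 2 a more negative change in NOMO-1, where 29.7% and 4.9% of all genes did. The median difference over all genes tested was 0.42. Among the transcriptional members 4 of 13 had a more positive change in NOMO-1, a share near that of all genes. Of these, CDK7 (1.7, limma adjusted p = 0.0095, SE 0.29), CCNT1 (1.4, adjusted p = 0.0069, SE 0.22) and CDK13 (1.39, adjusted p = 0.008, SE 0.23) were called in opposite directions in the lines. The share of all genes called in opposite directions is not given here. These 3 differences passed after rescaling by the median of ratios (adjusted p = 0.0038, 0.0022 and 0.0023), and those of CDK7, CCNT1 and CDK13 held under 14, 15 and 15 of 16 alternatives. CDK7 lost its call without MOLM-13 control replicate 1, and all 3 lost theirs with the replicate number as a block (limma adjusted p = 0.063, 0.061 and 0.061). With that block 0 of the 21 member differences stayed called, and 18 of the 21 had an unadjusted p under 0.05. Among the cell cycle members 10 of 16 had a more positive change in NOMO-1, with CDK1 (3.27), CCNE2 (2.95), CCNA2 (1.89), CDK2 (1.69), CCNB2 (1.32), CCND3 (1.23), CDK6 (1.11), CCNB1 (0.88), CDK4 (0.66) and CDK3 (0.62) on the log2 scale. Leaving out any 1 NOMO-1 library or either MOLM-13 control ended the differences of CDK1, CDK2, CDK3, CCNB1, CCNB2 and CCND3, and, NOMO-1 shALKBH5 replicate 2 apart, those of CCNE2 and CDK4, whereas CCNA2, CCND2 and CDK6 kept theirs without any 1 library but not with the block (adjusted p = 0.057, 0.061 and 0.057). After rescaling by the median of ratios the differences of CCNB1, CDK3, CDK4 and CCNL2 were lost and CDK9 gained one (-0.39, adjusted p = 0.016), which left 7 more positive and 1 more negative cell cycle member and 3 more positive and 1 more negative transcriptional member, beside 18.5% and 17.3% of all genes. CCND2 had the reverse, a deeper fall in NOMO-1 (-1.16, adjusted p = 0.0051, SE 0.16). CCNE1 and CCNF had differences of 0.26 and 0.22 that did not pass (adjusted p = 0.36 and 0.38), which does not show that the lines acted alike.

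Control libraries already differed in these genes. Of the 16 cell cycle members, 10 were higher in NOMO-1 and 3 lower, where 40.6% and 19.2% of all genes tested were, and of the 13 transcriptional members only CCNH did (0.52, limma adjusted p = 0.037, SE 0.17). That contrast depends on scaling: after rescaling by the median of ratios 1 transcriptional member was higher and 7 were lower in NOMO-1, where 34.1% and 32.1% of all genes were. CCND3 was 6.16 times higher in NOMO-1 by group mean, CDK18 12.2 times, CDK14 9.97 times, CCNA1 4.55 times, CDK16 4.03 times, CCNB2 3.9 times, CCNF 3.86 times, CCNA2 3.39 times and CCNB1 3.17 times, all called. MOLM-13 controls held 2.93 times more CDK6, 2.61 times more CCND2, 2.58 times more CDK3 and 1.64 times more CDK10, also called. Of the D-type sum in controls, CCND2 was thus 2.38% and 2.39% in NOMO-1 and 29.4% and 27% in MOLM-13.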

How the data were processed

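Per the submitters' processing notes, reads were processed with STAR and RSEM on the build GRCh38. Which versions, gene annotation and strandedness were used is not given in the sources here. The authors deposited 1 table of TPM for 26830 gene symbols and 8 libraries, read as TPM because every column has the same sum. TPM keeps no depth, so no depth or counting interval can be given. Table columns named E were taken as shALKBH5, since line, replicate number and the control columns leave no other sample.

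The 14302 genes that reached 1 TPM in 2 or more libraries were tested with limma 3.58.1 (R 4.3.3) on log2(TPM + 1), fitting 4 group means over all 8 libraries, with an intensity trend, two-sided tests and Benjamini-Hochberg adjustment over all genes tested. The fit had 4 residual and 2.29 prior degrees of freedom. Fold changes understate changes of low genes. The spread is pooled over groups, although MOLM-13 shALKBH5 libraries differed most. On simulated data for a NOMO-1 knockdown (10463 genes) the test called 63 of 100 genes changed by 1 on the log2 scale and 94 of 100 changed by 2, and 7 unchanged genes. The simulation gave each gene the same spread in all groups and changed few genes. It therefore cannot show how the test does under the unequal spread and many changes of these data.

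Coordinates are from GENCODE release 29. Exons of 21 of the 43 members overlap another annotated gene, 5 on the same strand and 18 on the opposite one, including CDK3 with a readthrough gene, so their TPM can share reads. The members and gene lists were chosen with earlier results of these data known. All tested cell cycle and transcriptional members were named, other members where they passed, and the 4 regulators and 4 partners with the smallest p in each line. Further CDKN genes were named beyond that rule. Alternatives were pseudocounts of 0.1 and 5, no filter, a mean of at least 5 TPM, median-of-ratios scaling, quantile normalization, each line alone, no trend, a replicate block and each library left out.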

Additional observations from a re-analysis of the deposited data

Results flagged for a closer look

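These members are listed because their knockdown effects differed between the lines in the interaction test (NOMO-1 minus MOLM-13, log2 scale, limma adjusted p beside each). The cell cycle members were CCND2 (-1.16, adjusted p = 0.0051), CDK6 (1.11, 0.0055), CCNA2 (1.89, 0.0096), CDK4 (0.66, 0.0097), CCNE2 (2.95, 0.012), CDK1 (3.27, 0.023), CCNB2 (1.32, 0.024), CCND3 (1.23, 0.025), CDK2 (1.69, 0.03), CCNB1 (0.88, 0.034) and CDK3 (0.62, 0.049). The transcriptional members were CCNT1 (1.4, 0.0069), CDK13 (1.39, 0.008), CDK7 (1.7, 0.0095) and CCNL2 (0.6, 0.045). The other members were CCNI (1.08, 0.012), CCNG2 (0.86, 0.016), CCNJ (1.13, 0.024), CDK10 (-0.53, 0.035), CDK20 (0.88, 0.042) and CDK5 (0.43, 0.043). With 29.7% of all genes tested more positive in NOMO-1, a positive difference is common in these libraries.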

How the results depend on the processing

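Over 2692 recomputed member values, 2176 kept direction and side of the threshold, 67 were uncalled throughout but changed sign, 281 lost their call, 155 gained one and 13 reversed. The replicate numbers pair no samples by the labels, and the deviations of same-numbered libraries correlated at 0.131 in MOLM-13 and 0.00467 in NOMO-1. With the replicate block, 1978 genes passed in NOMO-1 in place of 6242, 3971 in MOLM-13 in place of 5972 and 0 for the difference in place of 4946. With the block, 0 cell cycle and 0 transcriptional members were higher and 0 transcriptional members lower in NOMO-1, 3 transcriptional members were lower in MOLM-13, and 0 members were called for the difference. Each line alone gave 9418 and 2593 genes, 2 cell cycle members higher, 7 transcriptional members higher and 4 lower in NOMO-1, and 1 transcriptional member lower in MOLM-13. In NOMO-1, 0 cell cycle members were higher with a pseudocount of 0.1 or no filter, and 4 transcriptional members were lower under median-of-ratios or quantile scaling. Under quantile scaling 1 cell cycle and 1 transcriptional member were higher in MOLM-13. Reversed values were CCNJ in MOLM-13 (0.26 quantile, and -0.41 to 0.2 with a library left out), CCNL1 (-0.75 to 0.5), CCNL2 (0.21 quantile), CDK17 (-0.44 to 0.45) and CDK18 (-0.4 to 0.44), the differences of CDK5 (-0.07 and -0.05) and CDK9 (-0.39 and -0.37) under the 2 scalings, and between controls CDK4 (-0.01 quantile) and CDK9 (-0.2 and -0.23). Leaving out each library gave 3244 to 9755 genes in NOMO-1, 2631 to 9389 in MOLM-13 and 1586 to 9638 for the difference, with 5 to 36 members called for the difference in place of 21 and 14 to 34 between controls in place of 20; the highest counts came without MOLM-13 shALKBH5 replicate 1. The cause was not tested.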

Other observations

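GGACT is a common form of the letters around N6-methyladenosine, and was counted in the longest protein-coding transcript of each gene in GENCODE release 29. Genes tested had a median of 0.935 per kb (11927 genes, quartiles 0.571 and 1.4). The median was 0.915 per kb in the 16 cell cycle members, 0.836 in the 13 transcriptional members and 1.19 in the 12 other members tested. CCNF held 1.87 per kb, the highest of the cell cycle members, and CDK7 and CCNI held 0. No N6-methyladenosine was measured in these libraries, and letters in a transcript show no mark.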
